A study of Triticum aestivum with 12 samples.

Results

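Anthers of the heat-sensitive winter wheat ‘Mv 17-09’ and of the tolerant ‘Ellvis’ were compared at the end of the same heat stress. The comparison held 6 of the 12 RNA-seq libraries of the series, 3 from heat-stressed ‘Mv 17-09’ and 3 from heat-stressed ‘Ellvis’, chosen by their cultivar and stress labels alone. Both groups were vernalized winter wheat grown in chambers, and both had 35 °C for 24 h, started the day before meiosis began in the anthers, so no control library entered the main comparison and the differences below are between 2 stressed states. Each group stands for 1 cultivar, and growing, harvest and library preparation cannot be told apart from cultivar beyond what the 3 replicates show. Plants were grown in repeated experiments, but the labels do not tie a library to an experiment, and the tests therefore weigh the cultivar difference only against the variation among these 3 libraries a group, which may be partly technical.

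In the anther, the tapetum is the inner cell layer that feeds the meiocytes and then builds the pollen wall. A short chain of transcription factors (in *Arabidopsis* DYT1, TDF1, AMS, MS188 and MS1) switches on enzymes that turn fatty acids into sporopollenin, the polymer of the outer wall, and other enzymes that free the microspores from the tetrad and coat the pollen. Meiocytes meanwhile pair and recombine their chromosomes and segregate them on a spindle of microtubules, whose position depends on actin. The heat-stress response itself is known for chaperones such as the small heat shock proteins. The study’s own lists of wheat copies of such genes, 209 meiotic, 383 spindle, 108 actin and 202 tapetum gene models, are followed here by role. Bread wheat carries an A, a B and a D copy of most genes, and reads of near-identical copies may have been shared between them, so families are given copy by copy and as sums.

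Library totals were 13789268 to 17360285 counts in heat-stressed ‘Ellvis’ and 9336312 to 9670186 in heat-stressed ‘Mv 17-09’, a difference in depth that runs with cultivar. The 20 largest genes took 10.02 to 11.4% of counts in ‘Ellvis’ and 16.2 to 16.3% in ‘Mv 17-09’, and low-confidence gene models took 20.8 to 22.1% and 26.7 to 27.4%. Replicates differed by 2.57 to 4.89 times counting noise, so no library was a repeat of another. Of 266760 gene models, 61487 had enough counts to be tested with edgeR’s quasi-likelihood test. A gene was called when its Benjamini-Hochberg adjusted p was under 0.05 and its change at least 2-fold. In heat-stressed ‘Mv 17-09’, 5596 genes (9.1%) were higher and 9053 (14.7%) lower than in heat-stressed ‘Ellvis’, and the median log2 fold change (‘Mv 17-09’ over ‘Ellvis’, as throughout) over all tested genes was -0.003. All 3 ‘Mv 17-09’ libraries lay above all 3 ‘Ellvis’ libraries for 26.2% of tested genes, and below them for 28.8%. With every library thinned to the smallest total, the calls were 5133 higher and 8014 lower.

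The tapetum list had the largest share of lower genes of the 4 lists. Of its 116 tested members, 52 were lower in heat-stressed ‘Mv 17-09’ and 15 higher, with a median log2 fold change of -0.85. The meiotic list had 13 lower and 6 higher of 148 tested, the spindle list 29 lower and 8 higher of 326, and the actin list 10 lower and 3 higher of 75, with medians of -0.03, -0.08 and 0.14. Against the background of 14.7% lower among all tested genes, the share lower was 44.8% for tapetum, 8.78% for meiosis, 8.90% for spindle and 13.3% for actin genes. The number tested is smaller than the list because members with few counts were left out, among them 36 of the 45 serpins and 79 of the 111 pollen coat genes. The lists were drawn up by the study that made these libraries and are not independent evidence of a direction.

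**Figure D1:**
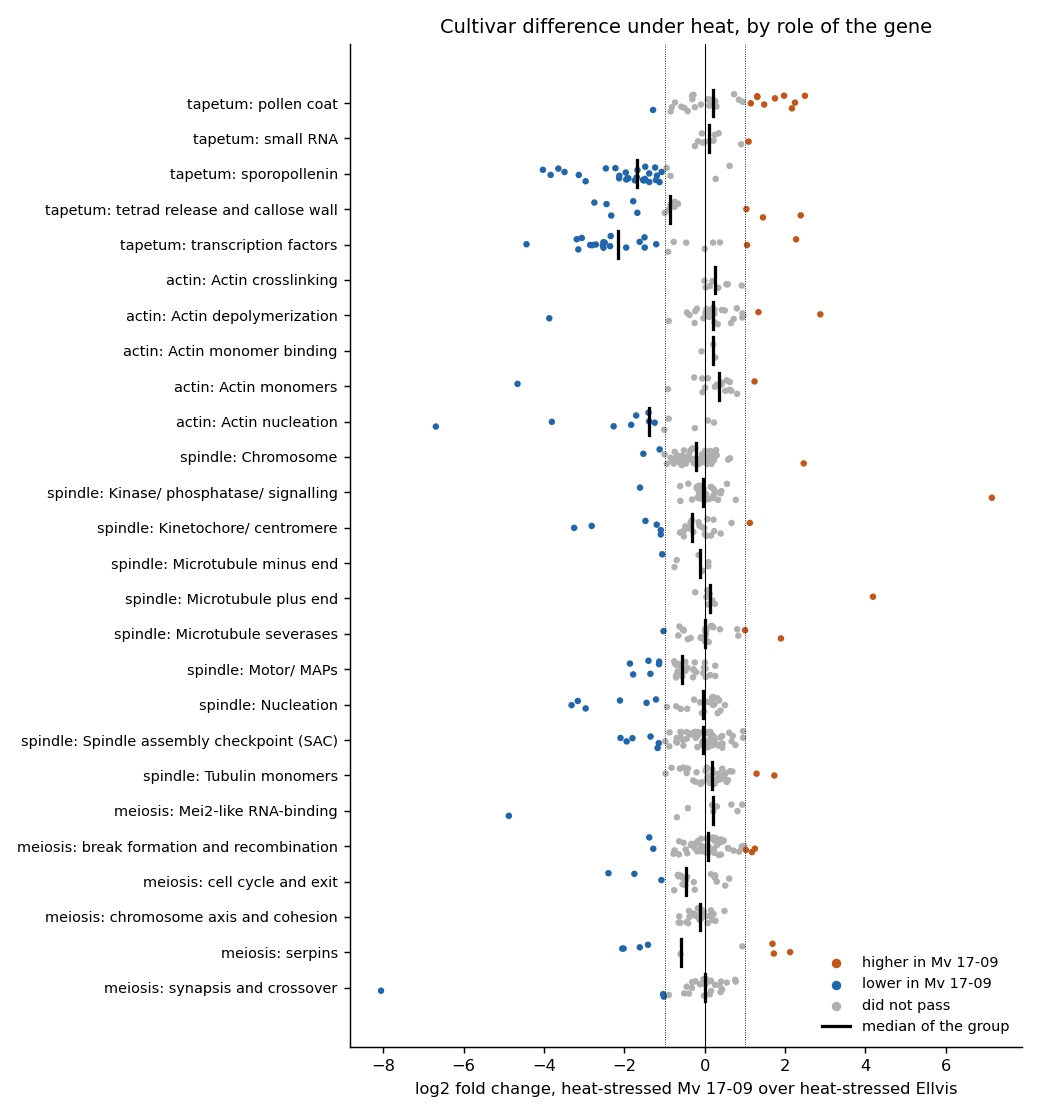
Each point is a tested member of the tapetum, actin, spindle or meiosis list, at its log2 fold change between heat-stressed ‘Mv 17-09’ and heat-stressed ‘Ellvis’ (x axis), by role (y axis). Orange and blue points were called higher and lower, the black bar is the median of the role group, and dotted lines mark 2-fold; transcription factors (median -2.15), sporopollenin genes (-1.68) and actin nucleation genes (-1.38) lie left of the other groups.

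Among the tapetal transcription factors, 18 of 26 tested copies were lower in ‘Mv 17-09’ and 2 higher, and the median was -2.15. MS1, a PHD-finger protein needed for late tapetum work and pollen wall formation, differed most. Its 5B copy TraesCS5B03G0608200 (chromosome 5B, 411993241 to 411995882, annotated as a Persistent Tapetal Cell 1-like protein) had 57.8, 53.6 and 40.7 CPM (counts of the gene scaled by the TMM-adjusted library total) in the 3 ‘Ellvis’ libraries and 2.8, 1.74 and 2.46 CPM in the 3 ‘Mv 17-09’ libraries. The groups were far apart, at a log2 fold change of -4.43 (SE 0.18, edgeR adjusted p = 7.4e-11). The 5D copy TraesCS5D03G0557000 had 88.5, 84.8 and 75.7 CPM against 13.7, 10.3 and 11.7 CPM (log2 fold change -2.80, SE 0.12, adjusted p = 7.9e-11). Summed over its 3 copies, MS1 was 9.11 times higher in ‘Ellvis’, at 175.7 ± 19.96 CPM (SD, n = 3) against 19.3 ± 3.41 CPM.

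TDF1, an R2R3-MYB factor early in the chain, was lower in all 3 copies. Copy sums were 152, 157 and 111 CPM in ‘Ellvis’ and 14.1, 27.4 and 19.3 CPM in ‘Mv 17-09’, a 6.92-fold difference in means. The 4D copy TraesCS4D03G0476500 (chromosome 4D, 335464327 to 335466159) stood at 54.0 ± 11.3 CPM against 8.25 ± 2.81 CPM (SD, n = 3), with a log2 fold change of -2.71 (SE 0.20, adjusted p = 2.9e-08). MS188, the MYB80 factor that binds sporopollenin gene promoters in *Arabidopsis*, was lower in all 3 copies and 5.92 times lower in sum. Its 2B copy TraesCS2B03G0905300 had 73.2, 75.6 and 51.0 CPM in ‘Ellvis’ and 7.12, 15.7 and 12.8 CPM in ‘Mv 17-09’ (log2 fold change -2.49, SE 0.21, adjusted p = 1.2e-07).

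The copies matched to DYT1 and AMS, annotated as TDR-like after the rice orthologue of AMS, were all lower, 6 of 6. Their sum was 508, 495 and 375 CPM in ‘Ellvis’ and 100.1, 96.6 and 94.98 CPM in ‘Mv 17-09’, and no ‘Mv 17-09’ library came near an ‘Ellvis’ one. The leading copy TraesCS6A03G0158700 (chromosome 6A, 41943657 to 41946590) fell from 158, 145 and 113 CPM in ‘Ellvis’ to 27.8, 20.99 and 23.8 CPM in ‘Mv 17-09’ (log2 fold change -2.52, SE 0.13, adjusted p = 9.5e-10). TIP2, a bHLH partner of TDR in rice, was lower in all 3 copies by a smaller factor, 2.55 in sum. Its 7B copy TraesCS7B03G0035500 had 43.4, 46.4 and 31.5 CPM against 13.6, 21.6 and 17.3 CPM (log2 fold change -1.21, SE 0.16, adjusted p = 2.0e-05).

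Other factors of the layer differed less or the other way. EAT1, a bHLH factor that promotes tapetal cell death in rice, had no copy called, although its sum was 124.6 CPM in ‘Ellvis’ and 80.2 CPM in ‘Mv 17-09’, with all 3 ‘Mv 17-09’ libraries below all 3 ‘Ellvis’ libraries. Its 2B copy TraesCS2B03G1175100 was at 57.7 ± 4.26 CPM in ‘Ellvis’ and 41.98 ± 6.40 CPM in ‘Mv 17-09’ (log2 fold change -0.46, SE 0.11, adjusted p = 0.0031, under 2-fold). The bHLH010, bHLH089 and bHLH091 group had none of its 3 copies called, and its sum was 89.3 ± 11.9 CPM in ‘Ellvis’ and 103.1 ± 1.95 CPM in ‘Mv 17-09’. The 2 copies matched to MYB33, which the reference names MYB30 and MYB30-like, were higher in ‘Mv 17-09’ at low levels. TraesCS6B03G0753700 had 0.569, 0.584 and 0.46 CPM against 2.37, 2.5 and 3.02 CPM (log2 fold change 2.27, SE 0.33, adjusted p = 4.2e-05), and TraesCS6A03G0619000 had a log2 fold change of 1.05 (SE 0.26, adjusted p = 0.0042), a call that was lost with library totals alone (0.98), without ‘Ellvis’ replicate 2 (0.97) and without ‘Mv 17-09’ replicate 1 (0.89).

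Genes of sporopollenin synthesis and export were lower in 28 of 32 tested copies and higher in none, with a median log2 fold change of -1.68. These are the enzymes that the factors above control in *Arabidopsis*, and they also served as the tapetum markers here, so that list is this group and not a separate check of how much tapetum the anthers held. Within the tapetum list, transcription factors shared its direction, with 18 lower and 2 higher of 26 tested. Tetrad genes went both ways, with 5 lower and 3 higher of 15 and a median of -0.85. Pollen coat genes did not share it, with 9 higher and 1 lower of 32 tested, nor did small RNA genes, with 1 higher and none lower of 11. The summed level of the sporopollenin markers was 20387, 19858 and 17455 CPM in ‘Ellvis’ and 7105, 5462 and 6391 CPM in ‘Mv 17-09’, and no marker was at 0 in either group. In bulk anthers, fewer tapetal cells and less RNA per tapetal cell cannot be told apart. The markers of meiocytes in prophase, for comparison, summed to 186 to 189 CPM in ‘Ellvis’ and 164 to 178 CPM in ‘Mv 17-09’, with 2 of 24 tested copies lower, 1 higher and a median of -0.17.

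The largest differences were in the polyketide steps. PKSB, a type III polyketide synthase that extends fatty acyl-CoA, had copy sums of 809.7, 660.1 and 463 CPM in ‘Ellvis’ and 45.0, 35.3 and 59.0 CPM in ‘Mv 17-09’, 13.9 times apart in means. Its 5A copy TraesCS5A03G0006300 (chromosome 5A, 3306978 to 3308595) had 292, 242 and 170.2 CPM against 12.4, 12.7 and 18.1 CPM (log2 fold change -4.03, SE 0.19, adjusted p = 2.8e-10). The 5B copy TraesCS5B03G0005500 and the 5D copy TraesCS5D03G0007700 differed by -3.83 (SE 0.22) and -3.49 (SE 0.20) on the log2 scale. TKPR2, a reductase acting on the polyketide product, was 9.65 times lower in sum. Its 3D copy TraesCS3D03G0060200 had 253, 218 and 166 CPM in ‘Ellvis’ and 13.6, 15.1 and 22.3 CPM in ‘Mv 17-09’ (log2 fold change -3.64, SE 0.18, adjusted p = 3.8e-10).

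The related enzymes PKSA and TKPR1 differed less. PKSA summed to 2549 ± 127 CPM in ‘Ellvis’ and 782 ± 141 CPM in ‘Mv 17-09’ (SD, n = 3), with all 3 copies lower. Its 1D copy TraesCS1D03G0407100 had a log2 fold change of -1.74 (SE 0.11, adjusted p = 5.5e-09). TKPR1 was lower in all 5 copies and 4.41 times lower in sum, and its 7B copy TraesCS7B03G0382300 had 699.6, 725 and 596 CPM against 204, 151 and 179 CPM (log2 fold change -1.92, SE 0.12, adjusted p = 3.7e-09). ACOS5, the acyl-CoA synthetase that opens the pathway, had copy sums of 5179.8, 4895 and 4110.1 CPM in ‘Ellvis’ and 1253, 1126 and 1321 CPM in ‘Mv 17-09’. All 3 of its copies differed by nearly the same amount, the 2B copy TraesCS2B03G0757300 by -1.96 (SE 0.11, adjusted p = 9.6e-10).

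The hydroxylases and the reductase of the fatty acid branch were lower by 2.28 to 2.84 times in sum. CYP703A2 summed to 707 ± 56.0 CPM in ‘Ellvis’ and 249 ± 15.5 CPM in ‘Mv 17-09’, CYP704B1 to 2773 ± 232 and 1163 ± 223 CPM, and MS2, a fatty acyl reductase, to 3468 ± 156 and 1521 ± 145 CPM (SD, n = 3 each). Their leading copies TraesCS7A03G0761700, TraesCS4B03G0752700 and TraesCS4A03G0036600 differed by -1.51 (SE 0.09), -1.38 (SE 0.11) and -1.38 (SE 0.10) on the log2 scale. One copy listed under CYP704B1 is annotated as a 4-coumarate--CoA ligase-like gene, so its place in the family is uncertain.

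The transporters differed less than the enzymes. ABCG26, the exporter of wall precursors, had 566, 569 and 562 CPM in ‘Ellvis’ and 401, 251 and 288 CPM in ‘Mv 17-09’ for its 7A copy TraesCS7A03G0920900 (log2 fold change -0.85, SE 0.13, adjusted p = 8.1e-05, under 2-fold), and the other 2 copies were called lower. Leaving out ‘Mv 17-09’ replicate 1, the highest of the 3, put this copy past 2-fold (-1.07). ABCG15, a lipid exporter known from rice anthers, had overlapping groups in sum, at 53.3 ± 1.31 CPM against 57.7 ± 8.91 CPM. Its 1A copy TraesCS1A03G0316300 had a log2 fold change of 0.27 (SE 0.11, adjusted p = 0.063), while its 1B copy TraesCS1B03G0409400, which lies in the chromosome 1B stretch described below, was lower at -1.49 (SE 0.15).

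**Figure D2:**
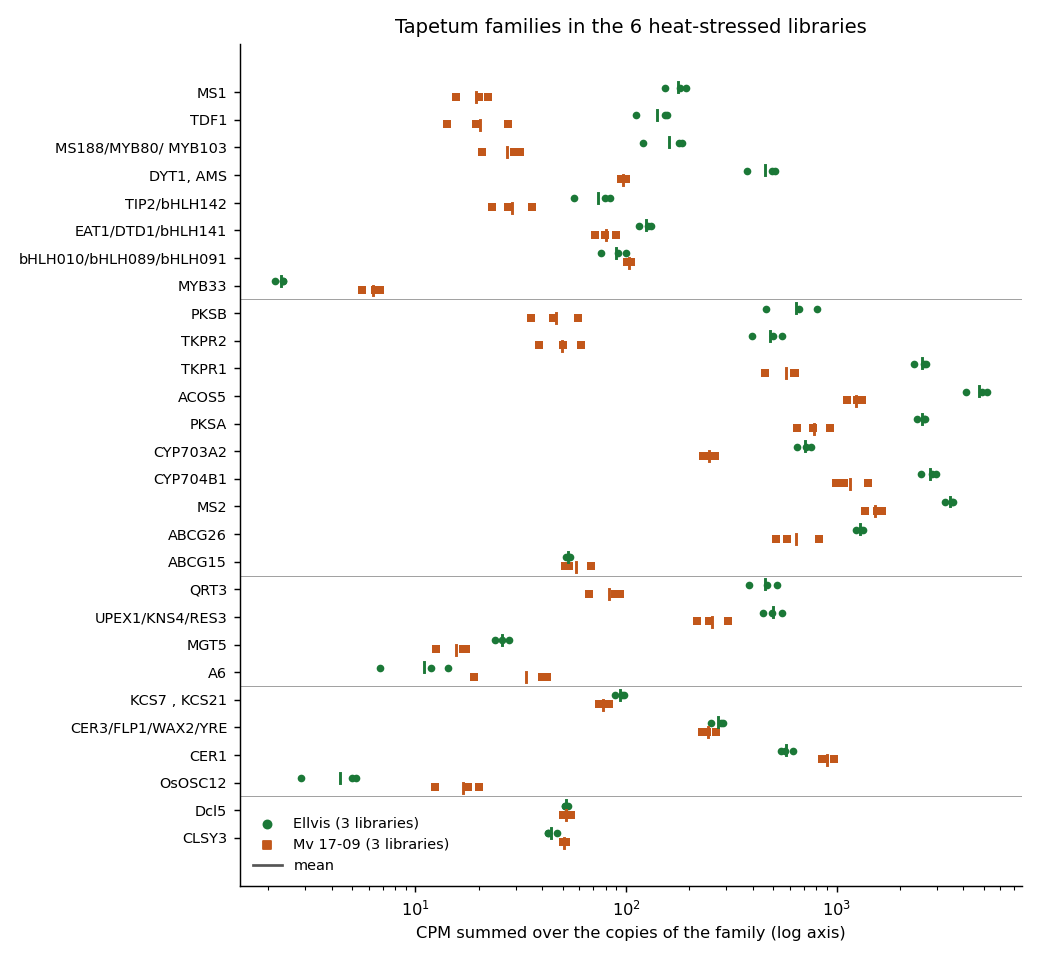
Summed CPM of the copies of each tapetum family (x axis, log scale) in the 3 heat-stressed ‘Ellvis’ libraries (green circles) and the 3 heat-stressed ‘Mv 17-09’ libraries (orange squares), with the group mean as a bar; grey lines separate transcription factors, sporopollenin, tetrad and callose, pollen coat and small RNA families. Groups do not overlap for 9 of the 10 sporopollenin families, all lower in ‘Mv 17-09’, while A6, CER1, OsOSC12 and MYB33 lie higher.

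Genes that act on the tetrad went both ways, with 5 of 15 tested copies lower, 3 higher and a median of -0.85. QRT3, a polygalacturonase that loosens the pectin around the tetrad, was lower in all 3 copies. The 2B copy TraesCS2B03G1128800 had 263, 233 and 185 CPM in ‘Ellvis’ and 48.5, 33.2 and 43.6 CPM in ‘Mv 17-09’ (log2 fold change -2.44, SE 0.14, adjusted p = 3.0e-09), and the 2A copy TraesCS2A03G1012900 differed by -2.74 (SE 0.13, adjusted p = 2.8e-10). The galactosyltransferase UPEX1, needed for a normal outer pollen wall, had 2 of 5 copies lower, and its main copy TraesCS1A03G0679400 had 189, 168 and 151 CPM against 104, 83.2 and 68.0 CPM, a log2 fold change of -0.995 that lay just under 2-fold (SE 0.13, adjusted p = 1.6e-05) and ran from -1.17 to -0.85 over the alternatives.

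A6, a glucanase linked to the dissolution of callose, was higher in 3 of 4 tested copies. Its 7B copy TraesCS7B03G0418300 had 3.7, 2.28 and 4.08 CPM in ‘Ellvis’ and 10.4, 21.6 and 20.7 CPM in ‘Mv 17-09’ (log2 fold change 2.39, SE 0.26, adjusted p = 2.2e-06). The lowest ‘Mv 17-09’ library was thus still above the highest ‘Ellvis’ one.

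Pollen coat genes were higher more often than lower, 9 against 1 of 32 tested copies. CER1, an enzyme of wax alkane synthesis, summed to 577 ± 38.9 CPM in ‘Ellvis’ and 899 ± 61.3 CPM in ‘Mv 17-09’ (SD, n = 3), with 4 of 8 tested copies higher. The 6B copy TraesCS6B03G0749900 (chromosome 6B, 467257728 to 467264066) had 109, 115 and 126 CPM against 283, 323 and 259 CPM (log2 fold change 1.31, SE 0.10, adjusted p = 4.9e-08). The 1B copy TraesCS1B03G0495300 was the most different of them, with 1.85, 1.46 and 2.59 CPM against 11, 13.6 and 8.83 CPM (log2 fold change 2.49, SE 0.22, adjusted p = 2.9e-07). The leading copy TraesCS1A03G0405200 did not pass, at 319 ± 26.1 CPM and 363 ± 31.3 CPM (log2 fold change 0.19, SE 0.10, adjusted p = 0.12).

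OsOSC12, a rice oxidosqualene cyclase needed for a pollen coat that holds water, was higher in all 3 wheat copies. Copy sums were 4.98, 2.86 and 5.23 CPM in ‘Ellvis’ and 17.8, 20.01 and 12.4 CPM in ‘Mv 17-09’, and the leading copy TraesCS7A03G0007700 had a log2 fold change of 1.75 (SE 0.29, adjusted p = 0.00016). CER3, a partner of CER1, had 2 of 9 copies higher, while its sum overlapped between the groups (275 ± 17.9 and 246 ± 19.2 CPM). One 3-ketoacyl-CoA synthase, TraesCS4B03G0728500, was lower (log2 fold change -1.28, SE 0.36, adjusted p = 0.0085), and 12 of the 85 listed synthases had enough counts to be tested. In the small RNA group, Dcl5, which makes the phased small RNAs of grass anthers, summed to 51.9 ± 1.13 CPM in ‘Ellvis’ and 52.1 ± 2.45 CPM in ‘Mv 17-09’. One copy of CLSY3, a chromatin remodeller of tapetal small RNA loci, was higher (TraesCS6A03G0658100, log2 fold change 1.09, SE 0.26, adjusted p = 0.0028), and that call was lost without ‘Ellvis’ replicate 2 (0.96).

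In the actin list the difference lay with the formins, which start and extend actin filaments. Of 13 tested formin copies, 8 were lower in heat-stressed ‘Mv 17-09’ and none higher, and the median was -1.38. The inverted formin-2-like gene TraesCS5A03G0991800 (chromosome 5A, 607955383 to 607956414) had 30.5, 24.3 and 16.2 CPM in ‘Ellvis’ and 0, 0.217 and 0.447 CPM in ‘Mv 17-09’ (log2 fold change -6.69, SE 0.41, adjusted p = 4.6e-09). The formin-like protein 20 gene TraesCS5D03G0745900 on 5D had 27.0, 26.0 and 16.3 CPM against 0.539, 2.39 and 2.01 CPM (log2 fold change -3.80, SE 0.30, adjusted p = 6.6e-08). In both genes every ‘Mv 17-09’ library lay below every ‘Ellvis’ library, although the ‘Ellvis’ libraries varied among themselves (SD 7.17 and 5.93 CPM).

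Further formins differed by less. TraesCS6B03G0241500, annotated as formin-like protein 18 and picked after its values were seen, stood at 7.26 ± 0.671 CPM in ‘Ellvis’ and 2.23 ± 0.280 CPM in ‘Mv 17-09’ (log2 fold change -1.70, SE 0.20, adjusted p = 4.2e-06). The most abundant member, formin-like protein 3 TraesCS2A03G0453100, did not pass, with 37.6, 24.2 and 51.2 CPM against 51.0, 51.6 and 29.9 CPM and overlapping groups. The formin copies summed to 145.6 CPM in ‘Ellvis’ and 74.9 CPM in ‘Mv 17-09’. One of the 8 lower members, TraesCS1B03G0948600, is annotated as a BAG chaperone regulator rather than a formin.

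Other actin genes rarely passed. None of the 8 tested fimbrin and 3 tested profilin copies was called, and no capping protein copy was. The actin 97-like gene TraesCS1B03G0048800 had 65.3, 66.6 and 67.5 CPM in ‘Ellvis’ and 2.37, 3.04 and 2.46 CPM in ‘Mv 17-09’ (log2 fold change -4.66, SE 0.13, adjusted p = 1.5e-12), and the villin-1-like gene TraesCS1B03G0333400 had 16.1 ± 1.95 against 1.10 ± 0.313 CPM (log2 fold change -3.87, SE 0.21, adjusted p = 1.2e-09). Both lie in the stretch of chromosome 1B described below, and both were called lower in the control libraries as well. Higher in ‘Mv 17-09’ were an actin 7-like gene, TraesCS3B03G1017700, and 2 actin-depolymerizing factors, of which TraesCS5B03G1193100 differed most (0.387 ± 0.221 against 2.80 ± 0.621 CPM, log2 fold change 2.88, SE 0.40, adjusted p = 2.8e-05).

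Among spindle genes, Cdc20, listed in the checkpoint group, was lower in 4 of its 12 tested copies and higher in none. Cdc20 turns on the anaphase-promoting complex once chromosomes are attached. The family sum was 159.9 CPM in ‘Ellvis’ and 71.2 CPM in ‘Mv 17-09’. The 2A copy TraesCS2A03G1044300 (chromosome 2A, 694488665 to 694491247) had 58.0, 71.4 and 58.3 CPM against 11.3, 14.7 and 17.99 CPM (log2 fold change -2.09, SE 0.14, adjusted p = 1.3e-08). Its 2D counterpart TraesCS2D03G0984000, looked up after the values were known, had 40.7, 46.4 and 41.5 CPM against 12.8, 11.7 and 12.4 CPM (log2 fold change -1.80, SE 0.11, adjusted p = 2.8e-09). The rest of the checkpoint group had 2 further copies lower among its 63 tested in all, 1 of Mad1 and 1 subunit of the anaphase-promoting complex on 1B, and the group median was -0.05. The share lower in the whole group was 9.52%, against 14.7% of all tested genes.

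Mozart1, a small subunit that docks gamma-tubulin complexes, was lower in all 3 copies. The 1D copy TraesCS1D03G0595700 had 7.47, 7.12 and 6.03 CPM in ‘Ellvis’ and 2.26, 4.24 and 2.35 CPM in ‘Mv 17-09’ (log2 fold change -1.21, SE 0.23, adjusted p = 0.00042). In the same nucleation group, 2 of the 6 lower copies, gamma-tubulin TraesCS1B03G0340300 (13.8 ± 0.793 against 1.38 ± 0.580 CPM, log2 fold change -3.31, SE 0.21, adjusted p = 7.6e-09) and a gamma-tubulin complex component, lay in the 1B stretch. Of the 26 tested nucleation genes, 23.1% were lower, against 14.7% of all tested genes, and none was higher. The group median was -0.04. Of the 6 lower copies, 2 were also called lower in all 6 controls, and 3 without the shallow ‘Ellvis’ control replicate 1.

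Motors and microtubule-associated proteins had 6 of 33 tested copies lower, none higher, and a median of -0.56. That share of 18.2% lower was near the 14.7% of all tested genes. Of the 6, 2 were also called lower in all 6 controls, and 1 without the shallow ‘Ellvis’ control replicate 1. Kin13, a kinesin that shortens microtubules, was lower in 2 of 9 copies, and TraesCS1B03G0335700 had 28.4, 30.1 and 28.9 CPM against 9.17, 6.52 and 8.38 CPM (log2 fold change -1.86, SE 0.13, adjusted p = 1.7e-08). This copy too is in the 1B stretch. MAP65, which bundles microtubules in the spindle midzone and phragmoplast, had 1 of 6 copies lower (TraesCS1A03G0915600, picked after its values were seen, 8.95 ± 0.768 against 3.39 ± 0.336 CPM). All 3 ‘Mv 17-09’ libraries lay below all 3 ‘Ellvis’ libraries for 22 of the 33 genes, against 28.8% of all genes.

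Kinetochore genes had 6 of 29 tested copies lower (20.7%, against 14.7% of all tested genes) and 1 higher. Of the 6 lower copies, 4 were also called lower in all 6 controls, and 6 without the shallow ‘Ellvis’ control replicate 1. Spc25 of the Ndc80 complex was lower in 3 of 5 copies, and a Mis12 copy, TraesCS7B03G1173700, had 2.7, 2.69 and 1.15 CPM against 0.324, 0.326 and 0 CPM (log2 fold change -3.25, SE 0.60, adjusted p = 0.00039). Nuf2, a partner of Spc25 in that complex, was higher in 1 copy (TraesCS6A03G0276800, 4.16 ± 0.545 against 9.05 ± 0.675 CPM). These are low counts, and the kinetochore count was 4 to 5 when single libraries were left out. Tubulins, the bulk of the cytoskeleton, had 2 beta-tubulin copies higher and none lower of 39 tested, and alpha-tubulin summed to 2637 CPM in ‘Ellvis’ and 3225 CPM in ‘Mv 17-09’ with none of its 16 copies called.

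Single genes of the other spindle groups passed as well. The microtubule end-binding protein EB1 was at 0.284, 0.35 and 0.115 CPM in ‘Ellvis’ and 4.64, 4.24 and 5.14 CPM in ‘Mv 17-09’ for its 2B copy TraesCS2B03G1381500 (log2 fold change 4.19, SE 0.36, adjusted p = 1.7e-07), and it was higher in the controls too (4.46). The severing enzyme Fidgetin was higher in TraesCS5B03G0284000 (2.53 ± 0.197 against 9.44 ± 0.344 CPM), and a spastin-like copy, TraesCS4A03G1045400, was lower by just over 2-fold (log2 fold change -1.02), a call that was lost with thinning (-0.99) and without ‘Ellvis’ replicate 1 (-0.98). A gene listed under RCC1 and annotated UVR8-like, TraesCS6A03G0369000, had 0 counts in all 3 ‘Ellvis’ libraries and 0.971, 1.74 and 1.45 CPM in ‘Mv 17-09’, at least 22.45-fold higher against a floor of 3 counts over the ‘Ellvis’ group. This gene was called higher in the controls as well (log2 fold change 6.61). In the chromosome group, a condensin subunit (TraesCS3A03G0519500, log2 fold change -1.53) was lower and 1 of the topoisomerase 2 copies (TraesCS5B03G0156800, 2.46) higher. An Aurora kinase copy, TraesCS1D03G0746400, was lower (-1.61, SE 0.53, adjusted p = 0.022), but not without ‘Ellvis’ replicate 2 (adjusted p = 0.050), ‘Ellvis’ replicate 3 (0.058) or ‘Mv 17-09’ replicate 2 (0.082), and a Microspherule copy, TraesCS5B03G1119000, had 43.4, 56.3 and 54.8 CPM against 13.05, 21.86 and 39.6 CPM (log2 fold change -1.06) and was lost with DESeq2 (adjusted p = 0.059) and without ‘Ellvis’ replicate 2 (-0.996), ‘Mv 17-09’ replicate 1 (-0.75) or ‘Mv 17-09’ replicate 2 (-0.97).

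The meiotic core differed little between the stressed cultivars. Of 29 tested genes of the chromosome axis and cohesion, none was called by edgeR in either direction. ASY1, the axis protein that helps homologous chromosomes pair, had 22.1, 22.8 and 20.1 CPM in ‘Ellvis’ and 12.2, 16.9 and 12.4 CPM in ‘Mv 17-09’ for its 5D copy TraesCS5D03G0668600 (log2 fold change -0.65, SE 0.13, adjusted p = 0.00091, under 2-fold). The groups did not overlap, and the 3-copy sum was 51.4 against 33.8 CPM. DMC1, the meiotic strand-exchange protein, summed to 19.9 CPM in ‘Ellvis’ and 17.4 CPM in ‘Mv 17-09’ with none of its 3 copies called.

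ZIP4, which promotes crossovers and in wheat keeps pairing to true homologues, had 2 of 4 copies lower at just over 2-fold (-1.02 and -1.03). The abundant 5B copy TraesCS5B03G0662600 (chromosome 5B, 440925174 to 440928762) had 13.4, 14.2 and 14.7 CPM against 10.8, 11.6 and 11.7 CPM (log2 fold change -0.31, SE 0.12, adjusted p = 0.045, under 2-fold). SPO11-1, which cuts DNA to start recombination, was higher in its 5B copy TraesCS5B03G0985500, with 9.10, 10.3 and 14.0 CPM against 27.3, 26.6 and 25.9 CPM (log2 fold change 1.25, SE 0.14, adjusted p = 3.5e-06). MRE11 of the break repair complex was lower in 1 copy, TraesCS2D03G1185400 (log2 fold change -1.38, SE 0.26, adjusted p = 0.00046), which was also called lower in controls (-2.05, adjusted p = 0.00035) and lies in a 2D run with 57% of models lower, and NBS1 of the same complex was higher in 2 of 3 copies (1.17 and 1.02). MUS81, a nuclease that resolves crossovers, had 1 copy, TraesCS1B03G0333800 (chromosome 1B, 153274818 to 153288256), at 1.99, 2.28 and 3.50 CPM in ‘Ellvis’ and 0 counts in all 3 ‘Mv 17-09’ libraries, at least 24.1-fold lower against a floor of 3 counts over the group, but the sum of its 15 copies was 38.4 and 37.1 CPM. This copy lies in the 1B stretch described below and was called lower in controls as well (adjusted p = 0.0012).

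Cell cycle genes had 3 of 20 tested copies lower (15%, against 14.7% of all tested genes), none higher and a median of -0.47. All 3 ‘Mv 17-09’ libraries lay below all 3 ‘Ellvis’ libraries for 12 of the 20 and above them for 4, against 28.8% and 26.2% of all genes. The 3 lower copies were of CDC45, a replication helicase factor with 5 tested copies. It summed to 10.6 CPM in ‘Ellvis’ and 4.86 CPM in ‘Mv 17-09’. TraesCS5D03G0372100 was the most different CDC45 copy, at 1.39 ± 0.216 CPM against 0.256 ± 0.0685 CPM (log2 fold change -2.39, SE 0.46, adjusted p = 0.00051). Serpins, protease inhibitors matched to AtSRP2 and AtSRP3, went both ways, with 4 of 9 tested copies lower and 3 higher. The most abundant one, TraesCS3D03G1127800, had 2.2, 0.993 and 2.64 CPM against 7.76, 6.42 and 4.58 CPM (log2 fold change 1.69, SE 0.30, adjusted p = 0.00025), whereas TraesCS5D03G1024700 differed by -2.05 (SE 0.36) and TraesCS5B03G1020700 by 2.12 (SE 0.34).

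A Mei2-like RNA-binding protein had one of the 2 smallest p-values among lower genes. The 1B copy TraesCS1B03G0015900, annotated MEI2-like 3, had 220.2, 243 and 227 CPM in ‘Ellvis’ and 6.9, 8.05 and 8.6 CPM in ‘Mv 17-09’ (log2 fold change -4.87, SE 0.11, adjusted p = 2.9e-13), and it lies in the chromosome 1B stretch. Its 1A copy TraesCS1A03G0016300 (chromosome 1A, 4379076 to 4386587) had 147, 161 and 157 CPM against 117, 115 and 118 CPM (log2 fold change -0.42, SE 0.08, adjusted p = 0.00074, under 2-fold). Over the 6 copies of AML1 and AML4 the sum was 744 CPM in ‘Ellvis’ and 610.0 CPM in ‘Mv 17-09’. The leading AML2 copy TraesCS7D03G0007200 was at 29.1 ± 1.503 and 35.9 ± 4.40 CPM (log2 fold change 0.30, adjusted p = 0.028, under 2-fold).

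**Figure D3:**
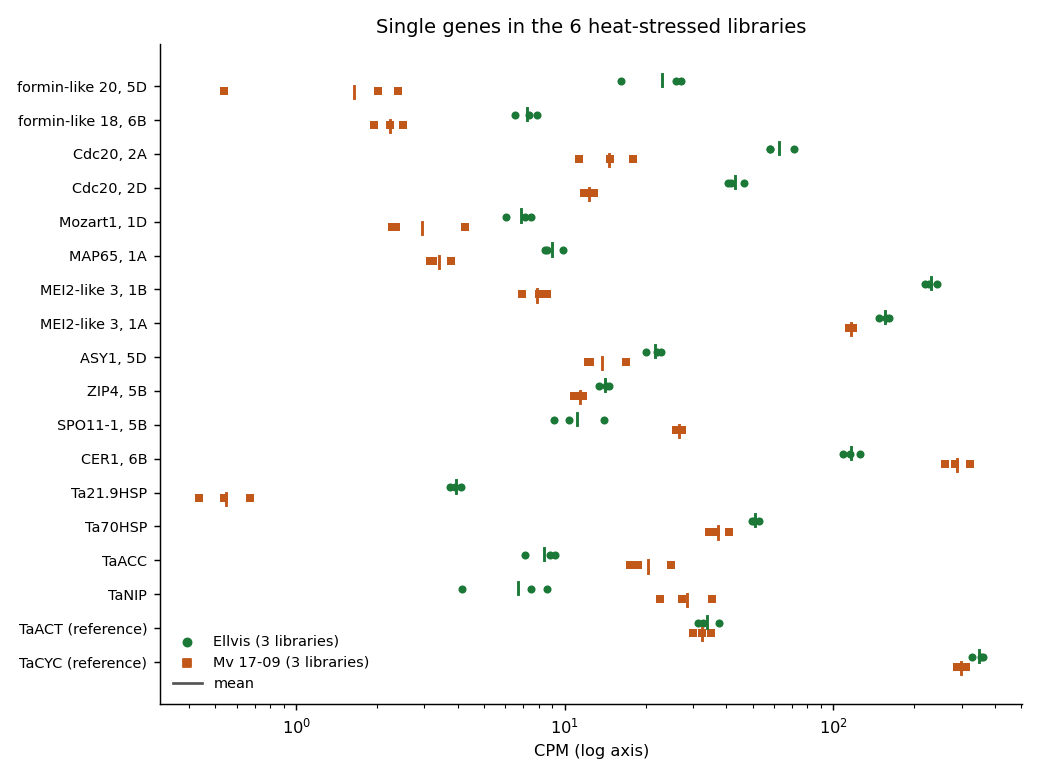
CPM (x axis, log scale) of 18 genes in the 3 heat-stressed ‘Ellvis’ libraries (green circles) and the 3 heat-stressed ‘Mv 17-09’ libraries (orange squares), with the group mean as a bar. Formins, Cdc20, Mozart1 and MAP65 lie lower in ‘Mv 17-09’, SPO11-1, CER1, TaACC and TaNIP higher, and the reference gene TaACT overlaps (33.8 and 32.6 CPM).

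The genes that the study had chosen to check by qPCR were also compared between the stressed cultivars. The study’s primers for the 4 called genes are shown to identify the assays, each written 5′ to 3′.
TaACC forward: ggtcactacggtcggtcaag
TaACC reverse: atcgcatgcataaacgcacc
TaNIP forward: ccaaagagcaagcgagctaa
TaNIP reverse: gtggccattttccaagacgaa
Ta21.9HSP forward: gattgccgagcatcaaaggc
Ta21.9HSP reverse: cccttaaggtacctccgcgt
TaGRAS forward: ctcgtgcttggatggaaggg
TaGRAS reverse: aatggtccgcaaaagtgtcc

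TaACC (TraesCS2B03G1056900, chromosome 2B, 600609271 to 600612060) encodes a synthase of the ethylene precursor. It had 9.17, 7.12 and 8.79 CPM in ‘Ellvis’ and 24.9, 18.7 and 17.4 CPM in ‘Mv 17-09’ (log2 fold change 1.29, SE 0.15, adjusted p = 5.8e-06). TaNIP (TraesCS6B03G0952900, chromosome 6B, 599649693 to 599653114), an aquaporin of the NIP2 type, had 7.47, 4.15 and 8.56 CPM against 27.3, 35.3 and 22.7 CPM (log2 fold change 2.08, SE 0.21, adjusted p = 1.1e-06). Both were thus higher in every ‘Mv 17-09’ library than in any ‘Ellvis’ library.

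The small heat shock protein gene Ta21.9HSP (TraesCS4A03G0602500, chromosome 4A, 533845280 to 533846358) went the other way. It had 4.12, 3.91 and 3.73 CPM in ‘Ellvis’ and 0.539, 0.435 and 0.67 CPM in ‘Mv 17-09’ (log2 fold change -2.82, SE 0.31, adjusted p = 2.5e-06). Ta70HSP (TraesCS3B03G0975400), a cognate HSP70, was at 51.1 ± 1.44 CPM and 37.2 ± 3.34 CPM, less than 2-fold lower (log2 fold change -0.46, SE 0.09, adjusted p = 0.00099). TaGRAS (TraesCS3D03G0851800), a GRAS regulator annotated RAD1-like, had 53 counts over the 3 ‘Ellvis’ libraries and 1 over the 3 ‘Mv 17-09’ libraries, a scaled ratio of 29.9 (95% exact interval 5.14 to 1203, counting error only).

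TaN2O, TaF3D and TaPAD, which encode 2 flavonoid dioxygenases and a phenylacetaldehyde reductase-like enzyme, did not pass, with log2 fold changes of 0.16 (SE 0.34), -0.24 (SE 0.38) and -0.59 (SE 0.29). Their mean levels ran from 1.204 to 2.32 CPM, so smaller differences were not detectable at this depth. TaUNK1 had 4 to 10 counts in ‘Ellvis’ and 0 to 2 in ‘Mv 17-09’, TaWRKY70 had 0 to 3 and 2 to 9, and both were too low to test. The reference gene TaACT (TraesCS5D03G0333200) had a log2 fold change of -0.05 (SE 0.10), and TaCYC (TraesCS6D03G0139300) one of -0.22 (SE 0.08). No wider chaperone list was used, because products were at hand only for the listed genes and a few curated models.

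The positions of the called genes were uneven. On chromosome 1B, 940 of 2739 tested gene models (34.3%) were lower in ‘Mv 17-09’, against 11.7 to 16.8% on the other assigned chromosomes, while 8.43% were higher. The models lower in ‘Mv 17-09’ lay at one end of the ID order. In the first 800 tested 1B models, TraesCS1B03G0000100 to TraesCS1B03G0450400, 638 were lower and 32 higher, with a median log2 fold change of -3.24, and each run of 100 had between 62% and 95% lower. From the next run on, 7% to 30% were lower. Over all 607 runs of the genome the median was 13%, and the highest run off 1B, on 2D, had 57%. Outside the 800 models, 13.9% of tested genes were lower and 9.17% higher.

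The same stretch was lower in ‘Mv 17-09’ without heat. In the control libraries, 524 of its 710 tested models (73.8%) were lower in ‘Mv 17-09’. Of the listed genes, 11 tested members lay in it, 5 spindle, 3 meiotic, 2 actin and 1 tapetum, and 10 of the 11 were lower. Without all chromosome 1B models, an alternative added after seeing the data, the lower calls were 51 tapetum, 25 spindle, 11 meiotic and 7 actin genes. Reads were counted against the Chinese Spring reference, so a gene that differs in sequence or is absent in one cultivar can also appear lower, and the part of this in the 1B result was not tested.

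**Figure D4:**
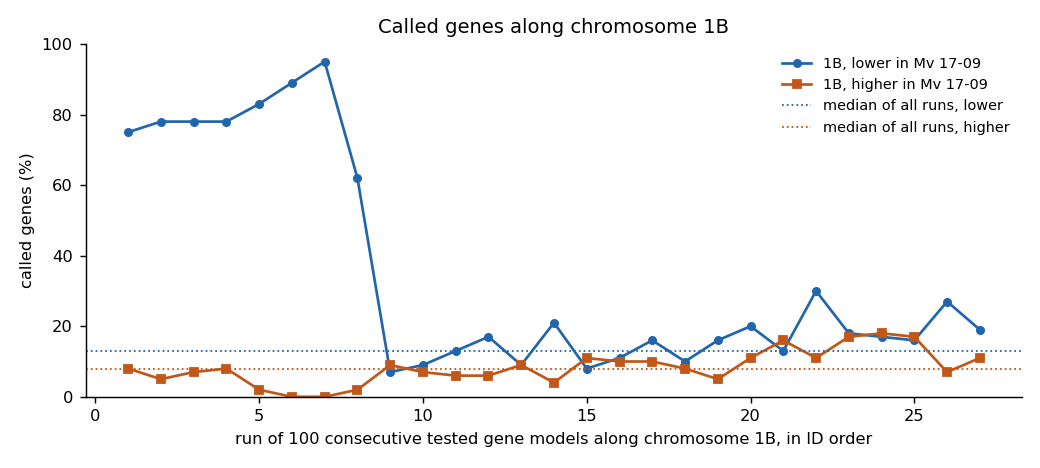
Percentage of called genes (y axis) in successive runs of 100 tested gene models along chromosome 1B in ID order (x axis), lower (blue circles) and higher (orange squares) in heat-stressed ‘Mv 17-09’, with dotted lines at the median of all 607 runs (13% and 8%). The first 8 runs have 62% to 95% lower and the later ones 7% to 30%.

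Some genes were counted in 1 cultivar only. In heat-stressed anthers 940 models had at least 10 counts in each ‘Ellvis’ library and 0 in all 3 ‘Mv 17-09’ libraries, 216 of them on 1B and 514 of low confidence, and 204 models had the reverse. Of these, 529 and 127 were at 0 in the control libraries of the same cultivar as well. Thinned to equal totals, the numbers were 630 and 268, so the numbers moved with depth. One of the smallest p-values among lower genes belonged to TraesCS4D03G0064200, with 173, 170 and 171 CPM in ‘Ellvis’ and 0 counts in ‘Mv 17-09’, at least 1566.5-fold lower against the same floor of 3 counts over the group. In the opposite direction TraesCS2B03G0749300 had 0.924, 0.525 and 0.690 CPM against 115, 115 and 121 CPM, and TraesCS5B03G1114700 had 0.782, 0.701 and 1.49 CPM against 240.5, 256 and 237 CPM, the smallest p-values among higher genes. Each of these genes was called in the same direction in the controls. The control log2 fold changes were -10.09 for TraesCS4D03G0064200, 6.16 for TraesCS2B03G0749300 and 8.50 for TraesCS5B03G1114700. Low-confidence models were higher in 14.1% and lower in 16.4%, against 8.03% and 14.4% of the others. Of 68 tested models that the files label as NLR immune receptors, 22 were higher and 5 lower, a group noticed after the values were seen. Taken with 4 other curated models, 31.9% were higher and 8.33% lower, against 9.1% and 14.7% of all tested genes. Whether these models also differed in the controls is not given here.

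The control libraries, from plants of both cultivars without the heat stress, show which of these differences were there without heat. In a separate edgeR fit of the 6 controls, 5.14% of 63367 tested genes were higher in ‘Mv 17-09’ and 5.12% lower. Of the genes higher under heat, 1971 of 5596 (35.2%) were also higher in controls and 13 were lower, and of those lower under heat, 2383 of 9053 (26.3%) were also lower and 62 higher. One control library, ‘Ellvis’ replicate 1, had only 1831675 counts, and without it 8.28% and 7.45% of 65557 tested genes were higher and lower, and the shared counts were 2646 and 3117. Of the 52 lower tapetum genes, 2 were also lower in controls, with and without that library, and of the 29 lower spindle genes 10 were with it and 12 without it. Of the 15 higher tapetum genes, none was called higher in all 6 controls, where 6 had too few counts to test, but 5 were without that library, 3 of the pollen coat group and 2 of the tetrad group (A6 copy TraesCS7B03G0418300, control log2 fold change 2.08, adjusted p = 0.0025). The heat-stressed and control comparisons share no library.

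Set by set, the mean log2 CPM of the 32 sporopollenin genes was 8.603 ± 0.07 in control ‘Mv 17-09’, 8.65 ± 0.44 in control ‘Ellvis’, 8.45 ± 0.13 in heat-stressed ‘Ellvis’ and 6.63 ± 0.20 in heat-stressed ‘Mv 17-09’ (SD, n = 3 each). Tapetal transcription factors gave 4.95 ± 0.06, 5.15 ± 0.36, 5.02 ± 0.17 and 3.37 ± 0.04 in the same order, and formins 2.37 ± 0.05, 2.52 ± 0.21, 2.55 ± 0.17 and 0.87 ± 0.35. In all 3 sets only the heat-stressed ‘Mv 17-09’ libraries lay below all 9 others. The meiocyte markers gave 2.13 ± 0.12, 2.096 ± 0.47, 2.21 ± 0.03 and 2.11 ± 0.14, with overlapping groups. For control ‘Ellvis’ that overlap rested on its shallow replicate 1, at 1.55. Its replicates 2 and 3, at 2.39 and 2.35, lay above the highest library of the other groups, at 2.26.

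**Figure D5:**
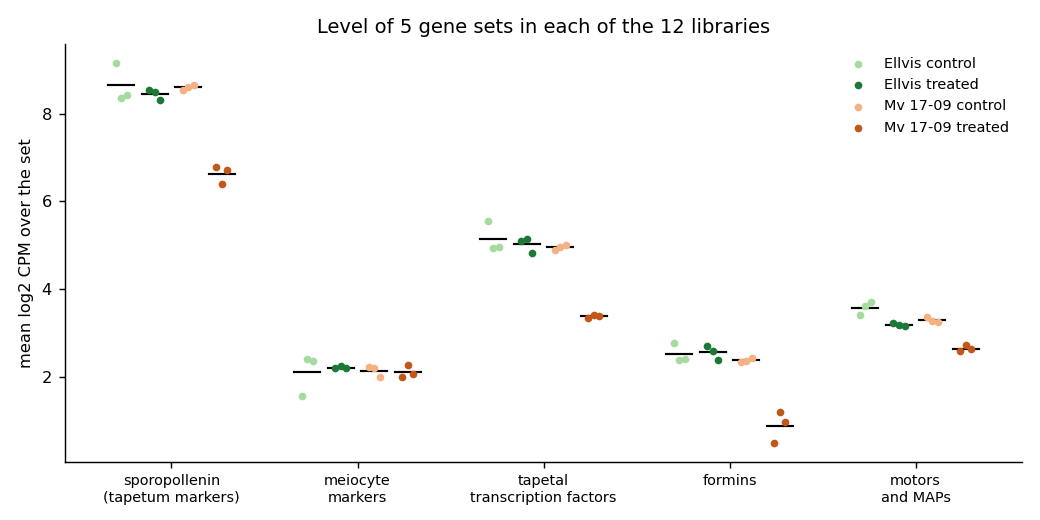
Mean log2 CPM (y axis) of 5 gene sets (x axis) in each of the 12 libraries, coloured by cultivar and treatment, with the group mean as a bar. The 3 heat-stressed ‘Mv 17-09’ libraries lie below the other 9 for sporopollenin genes, tapetal transcription factors, formins and motors, and among them for meiocyte markers.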

How the data were processed

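RNA from anthers was depleted of rRNA, made into stranded libraries and sequenced in pairs. The authors checked reads with FastQC 0.11.8, trimmed and mapped them in CLC Genomics Workbench to the wheat reference IWGSC RefSeq v2.1, and deposited total counts per gene model, 1 table per library. Whether counting used strand, how reads with several matches were placed and whether reads or fragments were counted is not given in the sources used here. Samples were grouped by the cultivar and stress in their labels.

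The counts of the 6 heat-stressed libraries were fitted with edgeR 4.0.16 in R 4.3.3 (quasi-likelihood test, TMM scaling, low genes dropped by filterByExpr at 10 counts per library and 15 in all), with p-values adjusted by Benjamini-Hochberg over 61487 genes. Approximate standard errors were taken as the absolute log2 fold change over the root of the F statistic. Controls were fitted apart, and a fit of all 12 libraries gave the interaction values. Gene lists and the names of copies come from the study's tables, and coordinates from RefSeq by gene symbol. Members and lists were chosen with earlier results of these data known. Named genes were the qPCR genes; in each role group, the largest called change each way among members whose groups do not overlap and whose mean reached 1 CPM in 1 group; in each family the study names, the most abundant member; the 2 smallest p-values each way; and up to 10 largest changes each way of annotated genes at 10 CPM or more. Others are said to be picked after their values were seen.

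In counts simulated for this comparison over 61487 genes, 36% of genes changed 2-fold, 98% of those changed 4-fold and 100% of those changed 8-fold or 16-fold were called, as were 12 of 59166 unchanged genes. Alternatives used DESeq2 1.42.0, limma 3.58.1 (voom), other scalings, filters and thresholds, thinned counts, a replicate block and each library left out. A chaperone list and green-tissue markers were not used, since products were at hand only for the listed genes and a few curated models. Intervals and floors cover counting error only.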

Additional observations from a re-analysis of the deposited data

Results flagged for a closer look

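For 33 of the 83 named genes the cultivar difference under heat was not the one between the control libraries. The values below are the difference under heat minus that in controls, both ‘Mv 17-09’ over ‘Ellvis’ on the log2 scale, from 1 edgeR fit of all 12 libraries (adjusted p under 0.05, also without the shallow ‘Ellvis’ control replicate 1). They use the same heat-stressed libraries as the report. Many of the genes were named for large changes in those libraries, which favours such differences. The share of all genes passing this test is not given here, so the 33 shows nothing particular to these genes.

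Among tapetal transcription factors the values were -3.57 and -2.45 for MS1 on 5B and 5D, -2.51 for TDF1 on 4D, -1.99 for the TDR-like gene on 6A, -1.75 for MYB80 on 2B and -1.66 for EAT1 on 2B. EAT1, not called under heat, was higher in control ‘Mv 17-09’ (log2 fold change 1.22 in TraesCS2B03G1175100). The MYB33 copies went the other way, at 3.42 on 6B and 2.12 on 6A. Some of these sizes rested on ‘Ellvis’ control replicate 1, and without it MS1 had -4.59 on 5B (TraesCS5B03G0608200) and -3.62 on 5D (TraesCS5D03G0557000) and MYB33 had 2.61 on 6B (TraesCS6B03G0753700).

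Sporopollenin genes were all negative, at -2.60 for TKPR2 on 3D, -1.98 for TKPR1 on 7B, -1.94 for PKSA on 1D, -1.85 for CYP703A2 on 7A, -1.78 for MS2 on 4A, -1.70 for ACOS5 on 2B, -1.26 for CYP704B1 on 4B and -1.22 for ABCG26 on 7A. QRT3 on 2A had -2.13 and the 3-ketoacyl-CoA synthase on 4B -1.68, whereas CER1 had 3.63 on 1B and 1.28 on 6A. Without ‘Ellvis’ control replicate 1, TKPR2 had -3.84 (TraesCS3D03G0060200), ACOS5 -2.31 (TraesCS2B03G0757300) and QRT3 -2.79 (TraesCS2A03G1012900). The PKSB copies passed only without that library: TraesCS5A03G0006300 had -2.54 with it (adjusted p = 0.066 in edgeR) and -4.09 without it (adjusted p = 1.9e-10), TraesCS5B03G0005500 had -1.97 and -3.86, and TraesCS5D03G0007700 had -1.37 and -3.38.

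Of the cytoskeleton and meiosis genes, formin-like 20 on 5D had -2.49, formin-like 3 on 2A -2.02, Cdc20 on 2A -1.91, Mozart1 on 1D -1.23, the Microspherule copy -1.55, Fidgetin on 5B 1.19 and the actin 7-like gene on 3B 2.1. Formin-like 3 (TraesCS2A03G0453100) was higher in control ‘Mv 17-09’ by 2.26 and overlapped under heat. MEI2-like 3 had -1.33 on 1B and -1.50 on 1A, AML2 on 7D -1.07 and the serpin on 5D -2.77. Of the qPCR genes, TaGRAS had -5.19 and Ta21.9HSP -4.25, both resting on few counts.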

How the results depend on the processing

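No called result turned direction under any alternative. Under the study's criteria (edgeR likelihood ratio and DESeq2 tests, adjusted p under 1e-06 in both), 2251 genes were higher and 3352 lower in heat-stressed ‘Mv 17-09’, with 1 and 2 meiotic, 2 and 8 spindle and 1 and 6 actin genes; 7 tapetum genes were higher and 51 lower. The lower genes also passing in controls were then 1408, and 18.7% of chromosome 1B models were lower. Without a low-count filter that share was 18.4% of more models, and the calls were 8002 and 13115.

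Leaving out single libraries gave 5657 to 6252 higher and 8324 to 10344 lower genes. The tapetum list then had 11 to 17 higher and 51 to 57 lower, the spindle list 7 to 10 and 25 to 32, the meiotic list 4 to 8 and 11 to 15, and the actin list 4 to 7 and 10 to 13. The 7 higher actin genes came without ‘Mv 17-09’ replicate 1 and 5 without ‘Mv 17-09’ replicate 3, against 3 with all libraries. Lower tapetal transcription factors were 18 under every alternative. The cause of these moves was not tested.

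Deviations of same-numbered libraries correlated at 0.07, 0.01 and -0.12. With 3 libraries a group, such values cannot decide whether the numbers pair the samples. A replicate block gave 5481 higher and 8864 lower genes. With library totals in place of TMM the median of all genes shifted by -0.08. The share of calls that were lower ran from 58.6% to 65.9% over the alternatives. Of 81 tested named genes, 57 kept their call throughout. Depth was lower in ‘Mv 17-09’. Simulated 2-fold changes were often missed, but they sat on the 2-fold threshold, so these misses do not measure the effect of depth.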
